A study of Mus musculus with 2 samples.

Results

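The metzincin proteases that remodel the space around cells, and the inhibitors that hold them in check, were examined in mouse back skin after local delivery of FGF18. The set held every probe on the array whose gene name was that of a numbered matrix metalloprotease (Mmp), a disintegrin and metalloprotease (Adam), an ADAM with thrombospondin motifs (Adamts) or a tissue inhibitor of metalloproteases (Timp). It came to 72 of 27576 gene symbols on the arrays, read by 124 of 41165 probes: 21 Mmp, 29 Adam and 18 Adamts genes, together 68 proteases, and 4 Timp inhibitors. Mmp1a was among them, but 0 probes carried the name Mmp1b. Skin came from C3H/HeN males, 61 days old, whose back hair had been removed 5 days earlier to start anagen, when follicles grow. On day 4 of that anagen, FGF18 protein (1 µg) or phosphate-buffered saline (PBS) was injected under the skin, and full-thickness skin was taken 24 h later. The labels mention 3 mice and do not say if these are per group or in all. They state both separate extraction of the mice and pooling of RNA by group, and 1 single-colour Agilent array was run for each group. The title of the PBS sample says telogen, but 2 of its other labels say anagen, which was followed here.

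MMPs are zinc-dependent enzymes that together cut most proteins of the extracellular matrix, and most are made as inactive precursors. ADAMs are mainly membrane-bound and release growth factors, cytokines and adhesion molecules from the cell surface, while the secreted ADAMTS enzymes trim procollagens and cut the large proteoglycans of the matrix. TIMPs bind the active sites of these enzymes. In skin these genes are known from wound repair, from turnover of dermal collagen and from remodelling of the tissue around a growing follicle.

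Since each group was read on 1 array, differences have no replicate check, and neither a test nor a p-value can be given. Precision is limited by this number of arrays. Values are processed signals, the scanner software's background-subtracted spot brightness in arbitrary units. Differences are scaled log2 ratios, FGF18 minus PBS, after subtraction of each array's 75th percentile (signals of 1020 and 899). A probe was measured on an array where at least 0.5 of its spots were well above background, and 62.4% (FGF18) and 61.5% (PBS) of probe spots were so. Over 16611 genes measured on both arrays the median log2 ratio was -0.07, and 2.53% of them were at least 2-fold apart, 1.54% higher and 0.987% lower on the FGF18 array. The higher genes were 61.0% of those past 2-fold with this scaling, 71.4% with median scaling and 78.5% without scaling. The share past 2-fold was 4.35% for genes with a mean signal under 100, 2.62% from 100 to 1000 and 1.67% over 1000. Between spots of one probe, the log2 ratio had a median SD of 0.19, 0.070 and 0.032 in these 3 classes, which is technical error alone. The keratinocyte keratins Krt5 (192000 and 177000 on the FGF18 and PBS arrays) and Krt14 (141000 and 123000) were bright on both arrays.

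Timp1 was 3.07-fold higher on the FGF18 array, and it was the only member past 2-fold among the 10 proteases and 3 inhibitors with a mean signal over 1000. Of 40 proteases measured on both arrays, 3 were past 2-fold, each by 1 probe: Adam28 and Mmp13 were higher and Adamts18 lower on the FGF18 array. That is 2 of 9 proteases with a mean signal under 100, 1 of 21 from 100 to 1000 and 0 of 10 over 1000. With normexp background correction none of the 3 was past 2-fold (log2 ratios of 0.64, 0.44 and -0.92 for Adam28, Mmp13 and Adamts18). This setting adds an offset of 50 to every spot, which by itself shrinks the ratios of dim probes, so it is no check of them. Without a filter on dim probes Adam28 was at 0.35, as its probes at background then enter the mean. The proteases had a median log2 ratio of -0.15, against the -0.07 of all genes, with 15 above and 25 of 40 below 0, while 62.5% of all genes were below 0, so the share below 0 was that of genes at large. At a limit of 1.5-fold, 2 proteases were higher and 3 lower, against 3.79% and 4.82% of all genes, 8.61% together. Another 3 proteases were measured on the FGF18 array only, 2 on the PBS array only and 23 on neither. Thus 40 of 68 proteases were measured on both arrays and 45 on at least 1. Among all genes these counts were 16611 and 17625 of 27576.

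Promoters of the members past 2-fold are shown because these genes stood apart from their families, with that of Mmp3, a bright neighbour of Mmp13, beside them. Each is the 250 bases before the annotated start, from RefSeq on GRCm38.p6, written 5′ to 3′ on the gene's strand. Capitals mark matches to the AP-1 site TGANTCA or to the interferon-response element ISRE, searched on both strands. The windows lie at chrX:20869916-20870165 (plus strand) for Timp1, chr9:7272264-7272513 (plus strand) for Mmp13, chr9:7445572-7445821 (plus strand) for Mmp3 and chr8:113848840-113849089 (minus strand) for Adamts18. Adam28 is named only.
Timp1: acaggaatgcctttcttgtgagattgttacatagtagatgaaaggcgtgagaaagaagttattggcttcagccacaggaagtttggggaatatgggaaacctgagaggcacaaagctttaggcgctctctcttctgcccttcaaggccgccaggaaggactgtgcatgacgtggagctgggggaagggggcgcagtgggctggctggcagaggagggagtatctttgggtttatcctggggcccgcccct
Mmp13: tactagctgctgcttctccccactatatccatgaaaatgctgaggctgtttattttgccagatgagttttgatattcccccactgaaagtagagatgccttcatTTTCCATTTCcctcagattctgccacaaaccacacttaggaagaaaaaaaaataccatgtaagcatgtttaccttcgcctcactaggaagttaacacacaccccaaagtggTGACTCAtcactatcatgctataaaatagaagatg
Mmp3: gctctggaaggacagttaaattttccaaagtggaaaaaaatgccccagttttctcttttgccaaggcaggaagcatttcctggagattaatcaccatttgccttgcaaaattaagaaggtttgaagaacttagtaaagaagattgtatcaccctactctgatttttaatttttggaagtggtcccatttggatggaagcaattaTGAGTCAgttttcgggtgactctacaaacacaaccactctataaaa
Adamts18: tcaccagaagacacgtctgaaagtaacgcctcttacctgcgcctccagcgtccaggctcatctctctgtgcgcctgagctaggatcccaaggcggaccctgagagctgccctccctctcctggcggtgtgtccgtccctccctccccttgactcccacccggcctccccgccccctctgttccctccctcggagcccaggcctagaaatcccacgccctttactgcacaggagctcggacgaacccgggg
Mmp13 held TGACTCA beginning 35 bases before its start and Mmp3 held TGAGTCA 46 bases before. The AP-1 site, bound by Fos and Jun proteins, was found in 6.75% of all 32851 windows of this length and in 10 of 46 windows of member genes. Those 10 genes were Adam19, Adam25, Adam29, Mmp1a, Mmp3, Mmp7, Mmp10, Mmp12, Mmp13 and Mmp20. All the Mmp genes among them lie in 1 run of neighbouring Mmp genes on chromosome 9, so their windows are not separate cases. Only Mmp13 (2.30-fold higher, by 1 dim spot per array), Mmp3 (log2 ratio 0.21) and Adam19 (-0.45) of the 10 were measured on both arrays. The part of the site in these values was not tested. The interferon-response element, which lay on the reverse strand of Mmp13 at 146 bases before the start, was found in 2.98% of all windows. The STAT site TTCNNNGAA was also searched on both strands and was found in 7.02% of all windows and in 2 of the 46. The windows of Timp1 and Adamts18 held none of the 3 motifs.

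Among the inhibitors, Timp1 encodes a secreted glycoprotein that blocks most soluble MMPs. One of its probes gave a signal of 9280 in FGF18-injected and 2790 in PBS-injected skin, and the other gave 853 and 234. Paired signals below keep this order. The scaled log2 ratios of these probes were 1.55 and 1.68, so both stood past 2-fold. The other three TIMPs did not: Timp2, which also takes part in activating pro-MMP2, was at 18200 and 20200 (log2 ratio -0.33). Timp3, which stays bound to the matrix and inhibits ADAM17 as well as MMPs, was at 13800 and 12900 (log2 ratio -0.08). Timp4 was at 443 and 330 (log2 ratio 0.24). Timp1 thus stood apart from the rest of its family, and the direction for Timp3 turned to 0.10 without scaling. In skin RNA, fewer cells of a type and less RNA per cell cannot be told apart, here or below.

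**Figure D1:**
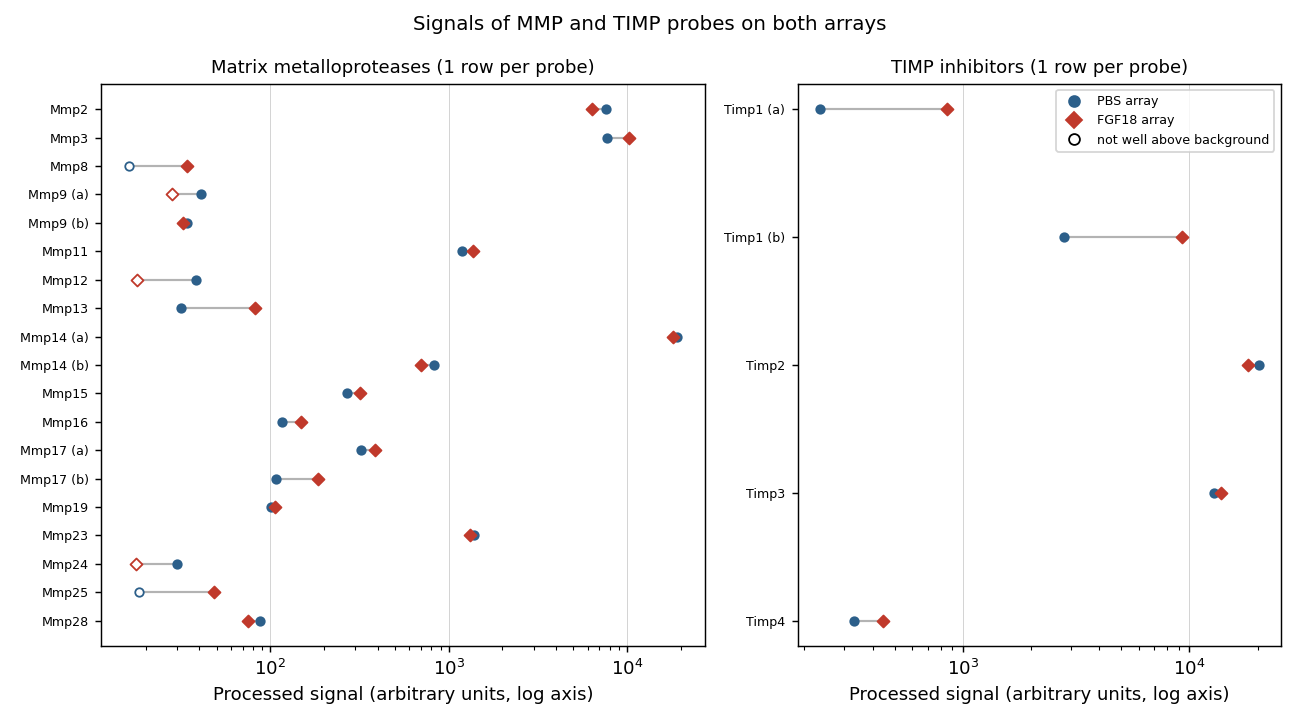
Processed signal (arbitrary units, log axis) of every Mmp and Timp probe measured on at least 1 array, PBS array as blue circles and FGF18 array as red diamonds, with open symbols where the probe was not well above background and letters for separate probes of a gene. Both Timp1 probes are far apart between the arrays (9280 against 2790 and 853 against 234), whereas bright Mmp genes such as Mmp14 and Mmp2 lie close together.

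The collagenases open the triple helix of fibrillar collagen. Mmp13, collagenase 3, is the main interstitial collagenase of mice, and it was at 82.5 and 31.6, a 2.30-fold difference. Mmp8, the collagenase of neutrophils, was measured on the FGF18 array only (34.1 against 16.1), at least 1.24-fold higher. Such a bound sets the bright value against the lowest signal well above background on the other array. It is not a strict limit, here or below: some probes above that signal were not measured (Mmp10 at 31.4 on the PBS array), and it leaves out spot error. Mmp1a was measured on neither array. These dim values are to be read against Mmp9, whose second probe was printed as 10 spots. Its spots ranged from 22.6 to 58.2 with a median of 30.3 after FGF18, and from 24.6 to 45.6 with a median of 34.5 after PBS. The spots thus overlapped widely, and their log2 ratio was -0.27 ± 0.50 (SD over 10 spots of 1 array pair), below 0 at 9 of the 10 positions. Other single-spot probes at such signals carry no such check.

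The gelatinases cut denatured collagen and basement membrane. Mmp2, made mainly by fibroblasts, was at 6320 and 7630 (log2 ratio -0.45), and Mmp9 was as given above, with its other probe measured on the PBS array only (28.1 against 40.8). Mmp3, stromelysin 1, a broad matrix protease that also activates other pro-MMPs, was at 10200 and 7760 (log2 ratio 0.21). Mmp11, stromelysin 3, was at 1370 and 1190 (0.02), and Mmp7, the epithelial matrilysin, and Mmp10, stromelysin 2, were measured on neither array. Bright MMPs thus differed by less than 1.5-fold in either direction.

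Of 7 membrane-anchored MMPs, 5 were measured on both arrays and 0 were past 2-fold. Mmp14 (MT1-MMP), which cuts collagen at the cell surface and activates pro-MMP2, was at 18100 and 19100 by one probe and at 701 and 826 by the other (gene mean -0.34). Mmp15 was at 319 and 270 (0.06), Mmp16 at 148 and 117 (0.16), and Mmp23 at 1320 and 1380 (-0.25). The probes of Mmp17 were at 386 and 324 and at 186 and 107, with log2 ratios of 0.07 and 0.62. Mmp25, known as leukolysin of neutrophils, was measured on the FGF18 array only (48.1 against 18.3), at least 1.75-fold higher. Mmp24 was measured by 1 probe on the PBS array only (17.7 against 29.9), at least 1.46-fold lower. Its other probe, measured on neither array, was at 12.8 and 5.38, the opposite direction. The values of Mmp24 and Mmp25 rest on dim single spots, which give no spread of their own.

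Among the remaining MMPs, Mmp12, the elastase of macrophages, was measured on the PBS array only (17.8 against 38.5), at least 1.87-fold lower after FGF18. Mmp19 was at 106 and 101 (log2 ratio -0.11), and Mmp28, epilysin, a keratinocyte MMP, at 74.7 and 88.1 (-0.42). Mmp20, the enamel protease, and Mmp21 were measured on neither array. In all, the 12 Mmp genes measured on both arrays had a median log2 ratio of -0.05, with 6 above and 6 below 0. In the RefSeq gene order, 10 Mmp genes lie next to one another on chromosome 9, from Mmp13 to Mmp7. Of the 8 on the array, Mmp13 and Mmp3 were measured on both arrays, Mmp8 and Mmp12 on 1 array and the other 4 on neither. Neighbours in this cluster were therefore detected to very different extents.

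The ADAMs with a working protease site in somatic tissues numbered 9, all measured on both arrays, with 4 above and 5 below 0. Adam17, the sheddase of TNF and of several EGF receptor ligands, was at 2150 and 1670 by one probe and 2240 and 1340 by the other (gene mean 0.37). Adam10, the sheddase that cuts Notch receptors, was at 50.2 and 56.5 (-0.35). Adam8, an ADAM of myeloid cells, was at 6820 and 4310 (1.40-fold higher), and Adam9 at 5030 and 4300 (0.04). Both Adam17 probes and the Adam8 probe were higher on the FGF18 array, though none was past 2-fold.

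Adam28, an ADAM known from lymphocytes and epididymis, was at 112 and 34.3 by 1 of its 3 probes, a 2.88-fold difference. Its other probes were at background on both arrays (4.96 and 5.14, and 5.32 and 5.53), so the difference rests on 1 spot per array. Adam12 was at 35.2 and 50.6 (-0.71). Adam19 was at 189 and 255 by one probe and 266 and 287 by another (gene mean -0.45), and Adam15 at 3510 and 3180 and at 273 and 287 (-0.15). Adam33 was at 173 and 148, 699 and 600, and 589 and 776 (-0.17), and its probes did not share a direction, at 0.04, 0.04 and -0.58. Of the ADAMs that lack a protease active site and are known from the nervous system, Adam23 was at 691 and 787 and at 283 and 341 (-0.41) and Adam22 was measured on neither array. Adam11 gave 137 and 29.8 by one probe (log2 ratio 2.02) but 119 and 125, and 115 and 120, by the other two (-0.25 and -0.24). The Adam11 probes thus disagreed, and its gene mean of 0.51 describes none of them.

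**Figure D2:**
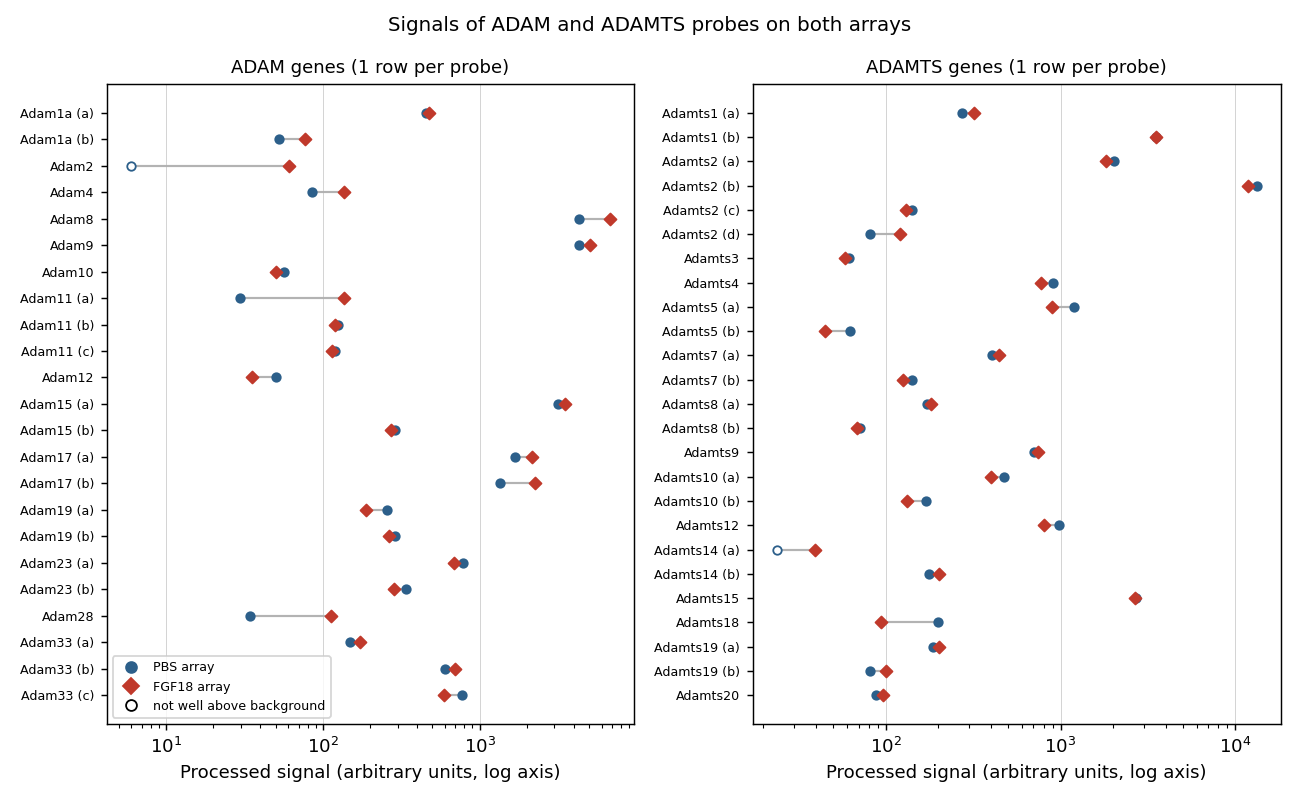
Processed signal (arbitrary units, log axis) of every Adam and Adamts probe measured on at least 1 array, drawn as 1 row per probe with the PBS array as blue circles, the FGF18 array as red diamonds and open symbols where the probe was not well above background. Adam28, 1 probe of Adam11 and Adam2 are to the right on the FGF18 array and Adamts18 to the left, all at signals of at most 199.

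Of 17 ADAMs known mainly from testis or epididymis, 14 were measured on neither array. Adam1a was at 474 and 453 and at 76.5 and 52.7 (gene mean 0.12), and Adam4 was at 137 and 85.2 (0.50). Adam2, the fertilin subunit of sperm, was at 61.0 and, at background, 5.94, at least 2.22-fold higher by its single probe. Of 6 testis marker genes, Prm1, Tnp1 and Tnp2 were measured on both arrays at signals of at most 55.6, none past 2-fold, Prm2 on the PBS array only, and Odf1 and Akap4 on neither. Their summed level, in units of the 75th percentile, was 0.178 after FGF18 and 0.183 after PBS. This sum counts all 6 genes, also where a gene was not measured. The log2 ratios of Prm1, Tnp1 and Tnp2 were 0.14, -0.0008 and 0.22. The part of these marker genes in the Adam2 value was not tested.

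The ADAMTS family leaned to lower values on the FGF18 array: 13 of 15 genes measured on both arrays were below 0 and 12 were below the median of all genes, against the 62.5% of all genes below 0. The count below 0 was 8 of 15 without scaling between arrays, where 31.1% of all genes were below 0. With normexp background correction it was 15, where 69.0% of all genes were below 0. The count below the median of all genes was 11 to 13 in every alternative with 15 genes, 11 of 12 with signals over 100 and 10 of 18 without a filter. The family median was -0.19. Adamts18, an orphan member of the family, was the only one past 2-fold, at 93.9 and 199 (2.40-fold lower) by 1 of its 2 probes, the other being at background.

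The proteases that cut aggrecan, versican and related proteoglycans were all measured, and all 7 lay below 0, between -0.63 and -0.06 with the 75th percentile scaling. The sign depends on the scaling. Without scaling Adamts1, Adamts8, Adamts9 and Adamts20 were above 0, at 0.11, 0.01, 0.07 and 0.12. Adamts4, Adamts5 and Adamts15 were below 0, at -0.24, -0.45 and -0.01. The median of all genes was then 0.11, so places relative to that median were unchanged. Adamts1 and Adamts20 also lay at about the -0.07 of all genes under the main scaling. Adamts5, the main aggrecanase of mice, was at 888 and 1200 by one probe and 45.0 and 62.4 by the other, with log2 ratios of -0.62 and -0.65. Adamts4, the other classical aggrecanase, was at 768 and 905 (-0.42). Adamts1 was at 319 and 272 and at 3500 and 3520 (gene mean -0.07) and Adamts15 at 2680 and 2700 (-0.19). Adamts9 was at 744 and 707 (-0.11) by 1 of its 3 probes, the others being measured on neither array. Adamts8 was at 182 and 172 and at 68.6 and 71.4 (-0.17), and Adamts20, known from the pigment pattern of belted mice, at 96.2 and 88.3 (-0.06). Adamts1 and Adamts5 are adjacent on chromosome 16, and Adamts8 and Adamts15 on chromosome 9. The ratios of the first pair lay far apart (-0.07 and -0.63), those of the second close together (-0.17 and -0.19).

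The procollagen N-propeptidases, which trim fibrillar collagens before they assemble, were not past 2-fold. Adamts2 was at 11800 and 13200, 1830 and 2030, and 131 and 142 by 3 probes (log2 ratios -0.34, -0.33 and -0.30), and at 120 and 81.4 by the fourth (0.38). The Adamts2 probes thus disagreed in direction. Adamts14 was at 202 and 177 (0.01), and its other probe was measured on the FGF18 array only (39.6 against 23.8). Adamts3 was at 58.8 and 61.8 (-0.25) by 1 of its 3 probes, the others being measured on neither array. Adamts14 was at 0.28 with 1 array enough, and Adamts3 at 0.43 without a filter on dim probes. Among family members with other or less known substrates, Adamts10 was at 398 and 472 and at 133 and 170 (-0.48). Adamts12 was at 809 and 985 (-0.47) by 1 of its 3 probes, the others being measured on neither array. Adamts7 was at 447 and 404 and at 126 and 142 (-0.20), and Adamts19 at 201 and 186 and at 100 and 81.6 (0.02), while Adamts6, Adamts13 (the von Willebrand factor protease) and Adamts16 were measured on neither array.

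**Figure D3:**
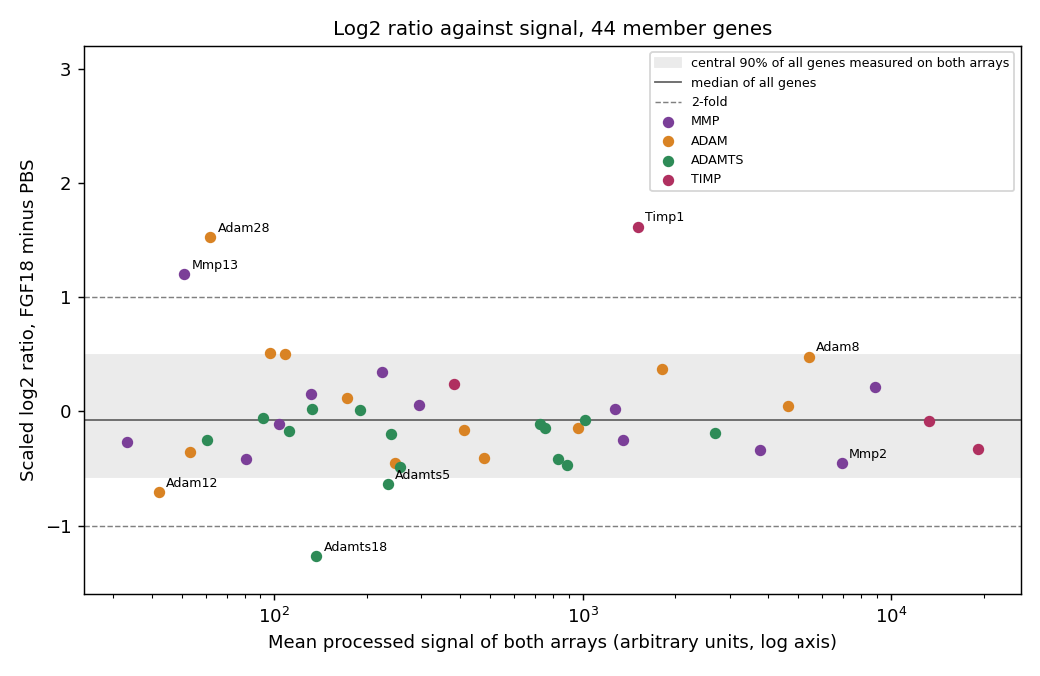
Scaled log2 ratio (FGF18 minus PBS) of the 44 members measured on both arrays against their mean processed signal (log axis), coloured by family, with the median (line) and central 90% (grey band) of all genes and the 2-fold limits (dashed). Timp1 at 1.62 is the only member past 2-fold at a high signal. Adam28 and Mmp13 lie past it with a mean signal under 100, and Adamts18 with a mean signal from 100 to 1000.

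Markers of the cells that make these proteins were read on the same arrays, and their part in the results above was not tested. Fibroblast markers had a summed level of 117 after FGF18 and 147 after PBS, with a median of -0.31 over 8 of 8 genes and 0 past 2-fold; Col1a1, Col1a2 and Col3a1 were at -0.74, -0.75 and -0.60 and Pdgfrb at -0.05. The neutrophil list summed to 3.53 and 3.13, with 6 of 12 genes measured on both arrays. Such a sum also counts genes that were not measured. Its median was -0.11. In it S100a8 was 3.53-fold higher, Csf3r was at 0.89 and Mpo at 0.12, while S100a9 was at -0.34, Camp at -0.47 and Cxcr2 at -0.61. Lcn2 was measured on the FGF18 array only, Elane, Ngp, Ltf and Retnlg on neither, and Ly6g had no probe by that symbol. The macrophage list summed to 23.0 and 22.7, with a median of 0.14 over 11 of 11 genes. Fcgr1 was 6.57-fold and Msr1 2.93-fold higher, and Itgam was at 0.99, Ccr2 at 0.66, Cd68 at 0.31 and Adgre1 at 0.14. The others were below 0: Mrc1 at -0.70, Lyz2 at -0.45, Cd163 at -0.40, Csf1r at -0.31 and Cd14 at -0.27. Keratinocyte markers summed to 507 and 558 and had a median of -0.08 over 7 genes. The other lists summed to 89.8 and 87.2 (hair matrix and shaft), 3.86 and 3.43 (endothelium), 346 and 306 (skeletal muscle), and 56.7 and 53.0 (adipocytes), with 0 genes past 2-fold.

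Other genes of these pathways were read from 5 lists. Of their 69 genes measured on both arrays 1 was past 2-fold, against 2.53% of all genes. With quantile normalization, loess or normexp 0 were. The 17 measured activators and pericellular regulators of MMPs had a median of -0.05. Reck, a membrane-anchored MMP inhibitor, was at 795 and 821 (-0.23), Thbs1, whose product binds MMPs, at 663 and 352 (0.73), and Pcsk5, a proprotein convertase, at -0.68, the lowest of its list. ADAMTS-like genes and ADAMTS substrates had a median of -0.08 over 14 genes, with Ncan, the proteoglycan neurocan, highest at 509 and 235 (0.93) and Has2, a hyaluronan synthase, lowest at -0.47. The regulators of ADAM17 and ADAM10 (iRhoms, Frmd8 and tetraspanins) had a median of 0.07 over 9 genes, from -0.15 for Tspan17 to 0.30 for Tspan10.

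Proteins released by ADAMs had a median of -0.10 over 23 genes. Ereg, the EGF receptor ligand epiregulin, was at 58.1 and 104, 2.03-fold lower and just past the limit, and Nrg1, neuregulin, was measured on the PBS array only (12.8 against 42.7), at least 2.08-fold lower. Il6ra, the interleukin-6 receptor, was the highest of this list among genes measured on both arrays, at 0.81. IL-6 family cytokines, known inducers of Timp1, and their receptors had a median of -0.03 over 8 genes, and none was past 2-fold. Il6ra is also in this list and was its highest (0.81, with probes at 0.60 and 1.02), and Il11 was at 89.5 and 89.9 (-0.19, the lowest). Il6 and Osm were measured on neither array, and Lif and Cntf had no probe by those symbols. The part of these genes in the Timp1 value was not tested.

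**Figure D4:**
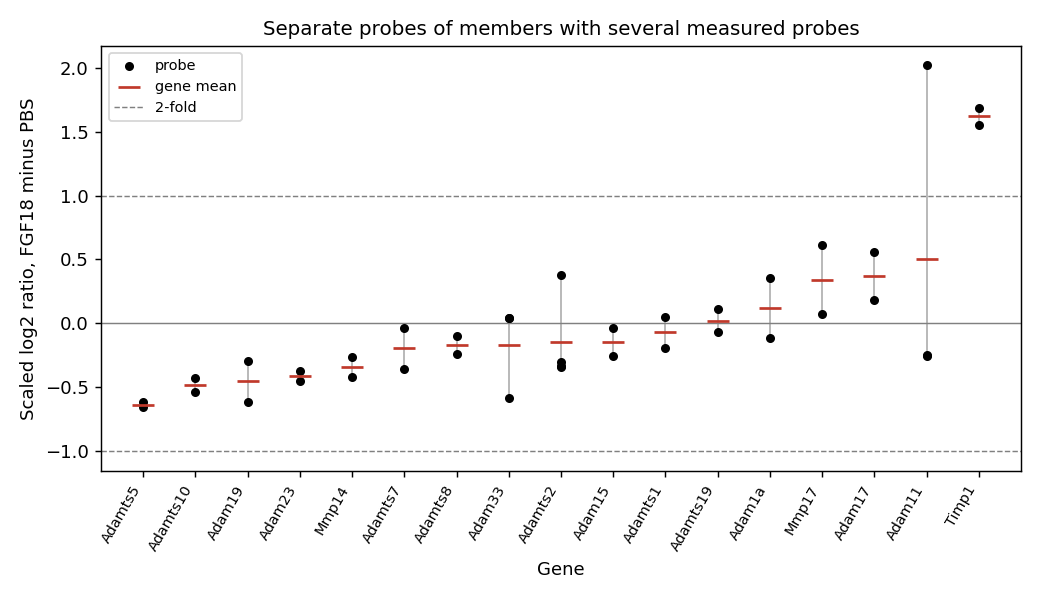
Scaled log2 ratio (FGF18 minus PBS) of each probe (black points) and the gene mean (red bars) for the 17 members with several probes measured on both arrays, ordered by the gene mean, with 0 (line) and the 2-fold limits (dashed). The Timp1 probes lie at 1.55 and 1.68, while the Adam11 probes range from -0.25 to 2.02.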

How the data were processed

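Full-thickness mouse back skin was measured on 2 single-colour Agilent arrays of design 014868, 1 per group, and groups were taken from the source names. Per the file headers, Feature Extraction 9.5.3.1 read the images (protocol GE1-v5_95_Feb07), and the deposited intensity used is its processed signal, after background subtraction and spatial detrending; near background it is a surrogate value. The other deposited columns used flag outlier spots, saturated ones (0 here) and those well above background. In the deposited series table each column is, as a ratio, the processed signal over a constant of the array (83.8 and 80.0), departing by at most 0.0072 (log2), with column medians of 1.00 and 0.999; the origin of the constants is unknown, and 0 columns of sample values were unmapped.

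The log2 processed signal minus each array's 75th percentile was used, without control and outlier spots, with spots of a probe and then probes of a gene averaged. Only probes measured on both arrays entered the mean of a gene. Names of other genes were updated through RefSeq tables of GRCm38.p6 (23368 probes by accession, 6732 by symbol, 2907 by synonym, 8158 kept); 41 member genes matched a promoter. Members with both signals in the text are all TIMPs, every measured MMP, the extreme and bounded ADAM and ADAMTS genes, Adam10 and Adam17; some others were added after their values were seen. A result for 1 gene of the other lists is not reported here. Members, lists and role groups were chosen with earlier results of these data known. Python 3.11.15, pandas 2.3.3 and limma 3.58.1 (R 4.3.3) were used, and the gene table was tested on simulated data.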

Additional observations from a re-analysis of the deposited data

How the results depend on the processing

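No paired analysis was possible because each group has 1 array. The alternatives were other scalings, the series value table, normexp correction (offset 50), stricter or no filtering of dim probes, other rules for several probes and other fold limits, and none replaces a replicate. Timp1 was past 2-fold in 12 of 12 alternatives, Mmp13 and Adamts18 in 10 of 11 each and Adam28 in 9 of 11. These 3 proteases had no value with signals over 100 on both arrays. Each rests on 1 measured probe, so the rules for several probes and the setting with 1 array enough could only return its main value. Their counts are therefore no sign of repeatability. With normexp correction Mmp13 was at 0.44, Adam28 at 0.64 and Adamts18 at -0.92, where the offset by itself shrinks the ratios of dim probes. Adam28 was at 0.35 without a filter. Of 44 members measured on both arrays, 29 had the same sign in every alternative with a value and 15 changed sign in at least 1; these 15 had log2 ratios of at most 0.25 in size, apart from Adam11. The median of all genes moved from -0.07 to 0.11 without scaling. The count of proteases past 2-fold (3 of 40) was 0 of 40 with normexp and 0 of 30 with signals over 100 on both arrays. It was 6 of 45 with 1 array enough, 9 of 68 without a filter, 5 at a limit of 1.5-fold and 0 at 3-fold. Among all genes, 166 were higher and 68 lower of 16611 with normexp, and 181 and 70 of 13942 with signals over 100. They were 562 and 437 of 17625 with 1 array enough, and 790 and 897 of 27576 without a filter. Of 16611 genes, 630 and 800 were past 1.5-fold, and 117 and 43 past 3-fold. The count of other pathway genes past 2-fold (1) was 0 with quantile normalization, loess, the 75th percentile of measured probes, normexp, signals over 100 and a limit of 3-fold, 2 with 1 array enough, without a filter or with the brightest probe, and 8 at 1.5-fold. The protease median (-0.15) was -0.051 with median scaling, 0.034 without scaling, -0.074 with loess and -0.031 with the series table. Timp1 was at 1.72 with median scaling, 1.80 without scaling, 1.68 with loess, 1.49 with normexp, 1.73 with the series table and 1.55 with the brightest probe. Timp2 was at -0.24 with median scaling, -0.15 without scaling, -0.27 with quantile normalization, -0.25 with loess and -0.22 with the series table. Timp3 was at 0.013, 0.097, -0.049, -0.0054 and 0.025 in the same 5 settings, so its direction follows the scaling. Timp4 was at 0.34 with median scaling, 0.42 without scaling and 0.36 with the series table. The fewer genes that pass a filter account for the lower count with signals over 100, and the counts at 1.5-fold and 3-fold differ by the limit itself. Median scaling, no scaling and the 75th percentile of measured probes shift all genes alike. In these settings the protease median minus that of all genes stayed at -0.077. Apart from the shrinking of dim ratios by the normexp offset, the cause of the other shifts was not tested. Signals near 23.3 and 24.2, the lowest well above background, limit what dim members can show.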

Other observations

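The probe named 4930523C11Rik in the files is now Adam6b in RefSeq and lay outside the name rule. Its signals were 64.8 after FGF18 and 45.4 after PBS (log2 ratio 0.33), while the probe named Adam6 was measured on neither array.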
